A study of Mus musculus with 6 samples.

Results

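The tumor necrosis factor (TNF) superfamily was described here by its 30 protein-coding genes whose symbols begin with Tnfsf or Tnfrsf followed by a digit, out of 31130 genes in the count tables. Of the 30 genes, 10 encoded ligands (Tnfsf) and 20 encoded receptors (Tnfrsf). The rule for members uses symbol and biotype and no measured value, so superfamily genes with other names, such as Tnf, Fas and Cd40, are given separately after them. RNA was measured in tumor tissue from 3 LC and 3 IP + LC mice, all of them wild-type C57BL/6 females bought at 6 to 8 weeks of age. LC mice received saline and IP + LC mice received bleomycin at 2.0 mg/kg by the oropharyngeal route on day 0, bleomycin being a drug that leads to interstitial pneumonia (IP) and lung fibrosis. In both groups, EGFP-expressing Lewis lung carcinoma (LLC) cells, which are a single mouse cell line, were placed in the left lung on day 14, and tumors were taken on day 21. The comparison asked how the gene expression of the tumors differed in the presence of IP.

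Ligands of the TNF superfamily are mostly trimeric proteins on the cell surface that can be shed, and they act by clustering their receptors. Receptors with a death domain can start apoptosis, while most of the others recruit TRAF adaptors and activate NF-κB. In the lung the family is known for T cell costimulation, for B cell survival, for cell death and for injury repair.

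The tables held counts of unique molecular identifiers (UMIs), each standing for 1 captured RNA molecule, from libraries primed at the 3′ end. Depth ranged from 592733 to 1379759 UMIs in the LC group and from 1336919 to 1631066 UMIs in the IP + LC group. LC replicate 1 was the shallowest library. There, 3 UMIs, the limit of detection used here, were worth 5.17 CPM (counts per 1000000 UMIs), against 1.75 to 2.54 CPM in the other tumors. The labels name the material lung cancer cells, but it was bulk tissue: type 2 alveolar markers summed to 34331 to 42438 CPM in the LC and 6012 to 11036 CPM in the IP + LC tumors, and 5 of 6 were lower in IP + LC. All 6 endothelial markers, all 6 alveolar macrophage markers and 3 of 5 tested neutrophil markers were also lower in the IP + LC tumors, and the neutrophil marker Ly6g did not exceed 3 UMIs in any tumor. In such tissue, fewer cells of a type and less RNA per cell cannot be told apart. The p-values measure only the spread between these 6 tumors.

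Receptors of the superfamily moved both ways in the IP + LC tumors, more of them up than down, and the ligands that passed the test were lower. Of the 30 members, 17 had enough UMIs for a test, namely 3 ligands and 14 receptors, and 11 of them passed an adjusted p-value of 0.1 in edgeR's quasi-likelihood test. The calls were 6 receptors that rose (Tnfrsf10b, Tnfrsf9, Tnfrsf23, Tnfrsf14, Tnfrsf12a and Tnfrsf1b), 3 receptors that fell (Tnfrsf19, Tnfrsf13c and Tnfrsf13b) and 2 ligands that fell (Tnfsf12 and Tnfsf10). Over all 11240 genes tested, 36.4% passed the same test, 16.8% higher and 19.6% lower. The median log2 fold change was -0.01 over the 17 tested members and 0.02 over all tested genes. The 2 groups did not overlap in CPM for 9 of the 17 members, and for 43.1% of all tested genes. No ligand rose, and the count was also 0 at an unadjusted p below 0.05, with DESeq2 and with limma voom. A member kept by the filter on low counts could be kept by its higher group alone, so these counts describe the tested members only. Without LC replicate 1, 7 receptors rose, 3 receptors fell and 3 ligands fell. Without LC replicate 2, 2 receptors rose, 1 receptor fell and 1 ligand fell, and the same 3 counts were found without IP + LC replicate 2.

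**Figure D1:**
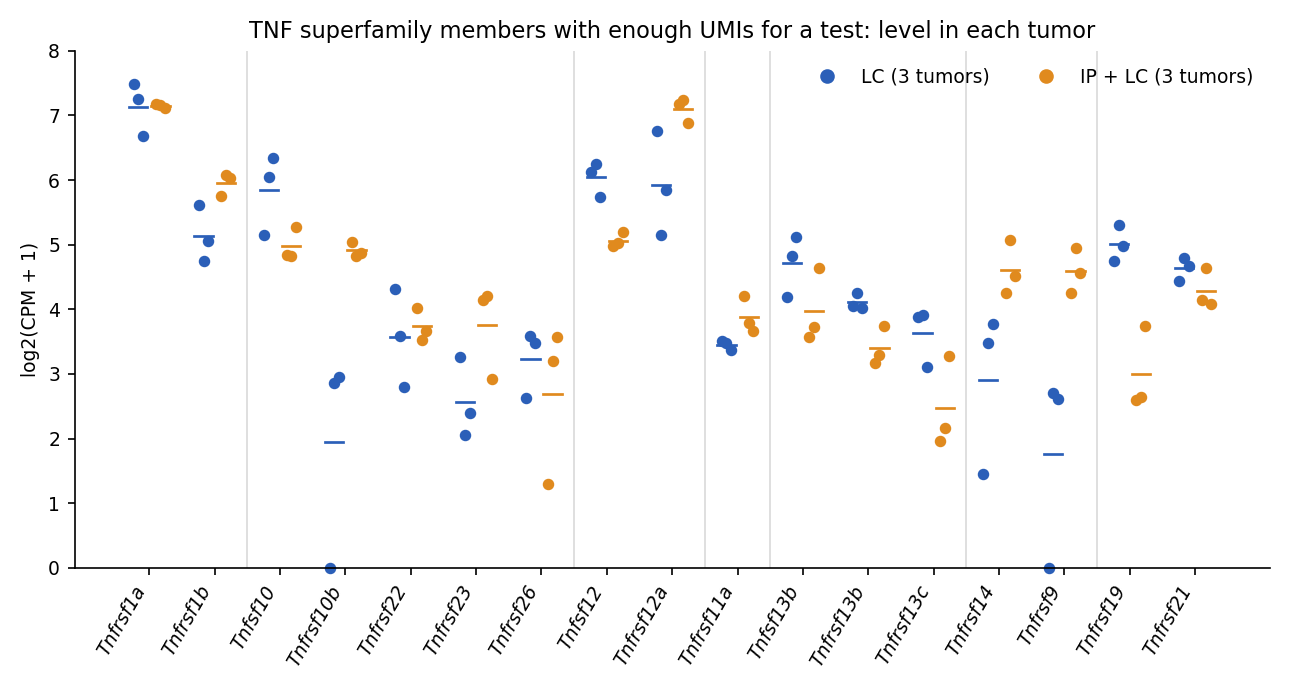
Levels of the 17 tested members in each tumor, as log2(CPM + 1), with 1 point per tumor, a line at the mean of the 3 points and grey lines between ligand and receptor axes. Tnfrsf10b and Tnfrsf9 were at 0 in LC replicate 1 and above every LC tumor in all 3 IP + LC tumors, while Tnfsf12 and Tnfrsf19 were below every LC tumor.

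**Figure D2:**
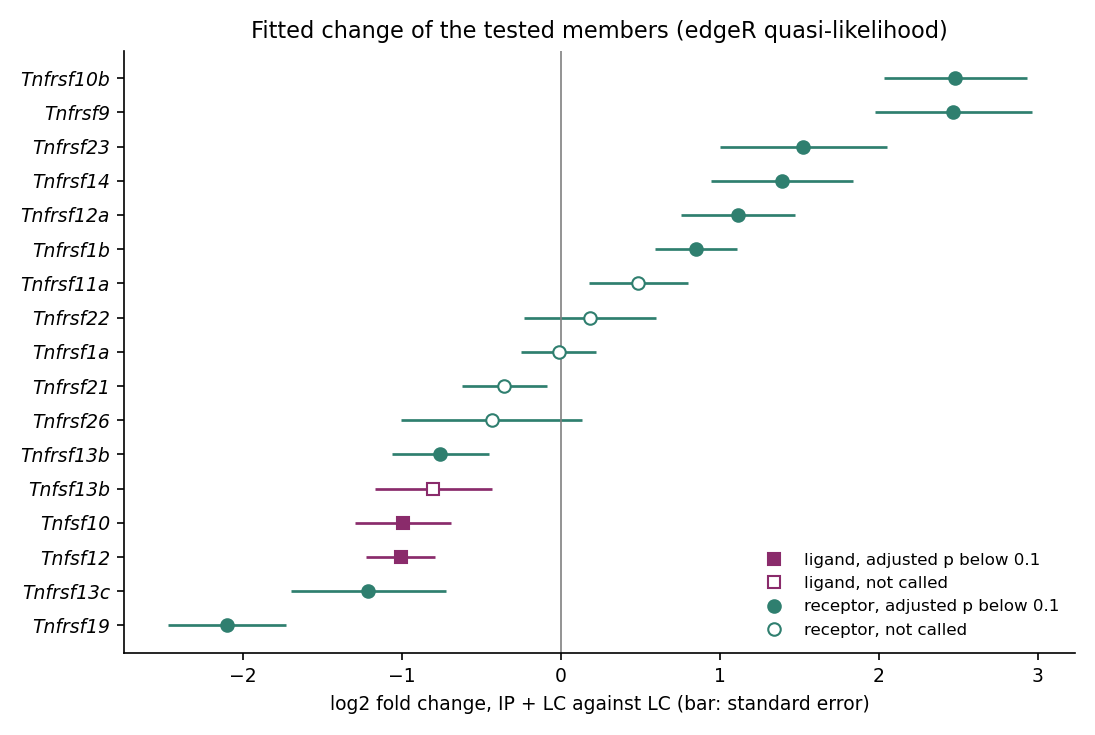
Log2 fold change of IP + LC against LC for the 17 tested members, with the standard error as a bar, squares for ligands, circles for receptors and filled symbols for an adjusted p below 0.1. The values run from -2.10 for Tnfrsf19 to 2.48 for Tnfrsf10b, and the 3 ligands lie between -1.01 and -0.80.

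The ligand and the death receptor of the TRAIL axis moved in opposite directions. Tnfsf10 encodes TRAIL, which triggers apoptosis through death receptors, and its gene spans 27317028 to 27342427 of chromosome 3 (GRCm38, as for all positions given). Tumors of the LC group had 20, 83 and 94 UMIs of it, and those of the IP + LC group had 38, 47 and 52. LC replicates 2 and 3 were high, and LC replicate 1, at 34.4 CPM, lay within the IP + LC range. The mean level was 59.7 ± 23.1 CPM in LC and 30.9 ± 5.93 CPM in IP + LC (SD, n = 3), and the fitted log2 fold change was -0.996 (SE 0.30, edgeR's quasi-likelihood adjusted p = 0.0380). The call was lost without LC replicate 2 (edgeR's adjusted p = 0.125), LC replicate 3 (0.125), IP + LC replicate 1 (0.152) or IP + LC replicate 2 (0.170), and after thinning to equal depth (log2 fold change -0.70, edgeR's adjusted p = 0.229). All 6 endothelial markers fell alongside it, from summed levels of 949 to 1685 CPM to levels of 333 to 412 CPM. Per 100 UMIs of that list, Tnfsf10 had 3.63 to 5.48 UMIs in LC and 7.58 to 9.15 UMIs in IP + LC, and the part of the endothelial markers in the result was not tested.

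Tnfrsf10b encodes the only mouse TRAIL receptor with a death domain, on chromosome 14 from 69767472 to 69784411. It had 0, 8 and 8 UMIs in the LC tumors and 44, 47 and 39 UMIs in the IP + LC tumors. The lowest IP + LC count, 39 UMIs, stood far above the highest LC count, 8 UMIs, and the gene passed the filter on low counts only through its IP + LC tumors. The level was 4.35 ± 3.78 CPM in LC and 29.2 ± 2.37 CPM in IP + LC (SD, n = 3), with a log2 fold change of 2.48 (SE 0.45, edgeR's quasi-likelihood adjusted p = 0.00512). Without LC replicate 1, which had 0 UMIs, it was 2.16 (edgeR's adjusted p = 6.47e-05), and the call held in all 15 alternatives. A share of 20.1% of its transcript matched transcripts of other genes nearly exactly, so some of its reads may not be unique to it.

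Tnfrsf22 and Tnfrsf23, decoy receptors that bind TRAIL without a death domain, and their relative Tnfrsf26 lie side by side on chromosome 7 between 143607659 and 143685872. Tnfrsf23 had 5, 4 and 5 UMIs in LC and 23, 30 and 9 UMIs in IP + LC. IP + LC replicate 3, at 6.54 CPM, lay below LC replicate 1, at 8.61 CPM, so the groups overlapped. The log2 fold change was 1.53 (SE 0.52, edgeR's quasi-likelihood adjusted p = 0.0591), and the call was kept in 8 of 14 alternatives. It was lost without LC replicate 2, LC replicate 3, IP + LC replicate 1 or IP + LC replicate 2 (edgeR's adjusted p from 0.167 to 0.231). Its neighbors were not called, and their groups overlapped. Tnfrsf22 ranged from 5.93 to 18.9 CPM in LC and from 10.5 to 15.2 CPM in IP + LC, with a log2 fold change of 0.18 (SE 0.41). Tnfrsf26 ranged from 5.17 to 11.0 CPM in LC and from 1.45 to 10.9 CPM in IP + LC, with a log2 fold change of -0.44 (SE 0.57).

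The share of Tnfrsf10b in the UMIs of Tnfrsf10b and Tnfsf10 together does not depend on the scaling between libraries. This share and the shares of the other pairs were chosen after the values were seen, and since a pair was picked with the calls of its genes known, they are given as a description with no test. The share was 0% in LC replicate 1 (0 of 20 UMIs, which allows a share of up to 15%), 8.79% in LC replicate 2 (95% Wilson interval 4.52 to 16.4) and 7.84% in LC replicate 3 (4.03 to 14.7). In the IP + LC tumors it was 53.7% (42.9 to 64.0), 50.0% (40.1 to 59.9) and 42.9% (33.2 to 53.1). The means were 5.54% ± 4.83 and 48.8% ± 5.49 (SD, n = 3). These intervals cover counting error only.

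A ligand lower and a receptor higher were also found in the TWEAK axis, which acts in tissue repair and angiogenesis. Tnfsf12, the gene of TWEAK, lies on chromosome 11 from 69686250 to 69695849 and had 40, 96 and 62 UMIs in LC and 42, 54 and 49 UMIs in IP + LC. In CPM, all 3 IP + LC tumors lay below all 3 LC tumors, at 32.5 ± 2.71 against 65.5 ± 11.7 (SD, n = 3). The log2 fold change was -1.01 (SE 0.22, edgeR's quasi-likelihood adjusted p = 0.0105) and was called in all 15 alternatives. Per 100 endothelial marker UMIs, Tnfsf12 had 3.62 to 7.26 UMIs in LC and 8.38 to 9.47 in IP + LC. A share of 48.3% of its exonic bases is also annotated, on the same strand, to the readthrough gene Tnfsfm13, which held at most 10 UMIs in any tumor, so reads there cannot be told apart.

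Tnfrsf12a encodes Fn14, the receptor of TWEAK, which rises in injured and growing tissue, and lies on chromosome 17 from 23675445 to 23677468. It had 62, 44 and 67 UMIs in LC and 199, 258 and 161 UMIs in IP + LC. The levels were 107, 34.5 and 56.8 CPM in LC and 144, 151 and 117 CPM in IP + LC, so the groups did not overlap and LC replicate 1 was the highest of its group. The log2 fold change was 1.11 (SE 0.36, edgeR's quasi-likelihood adjusted p = 0.0475). Without LC replicate 1 it was 1.61 (edgeR's adjusted p = 1.67e-05). It was no longer called without LC replicate 2 (0.149), LC replicate 3 (0.130), IP + LC replicate 1 (0.139) or IP + LC replicate 2 (0.159).

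The share of Tnfrsf12a in the UMIs of Tnfrsf12a and Tnfsf12 was 60.8% (95% Wilson interval 51.1 to 69.7), 31.4% (24.3 to 39.5) and 51.9% (43.4 to 60.4) in LC. In IP + LC it was 82.6% (77.3 to 86.8), 82.7% (78.1 to 86.5) and 76.7% (70.5 to 81.9). The means were 80.6% ± 3.44 in IP + LC and 48.1% ± 15.1 in LC (SD, n = 3), and the absence of overlap follows from the values of the 2 genes, which did not overlap and moved in opposite directions.

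**Figure D3:**
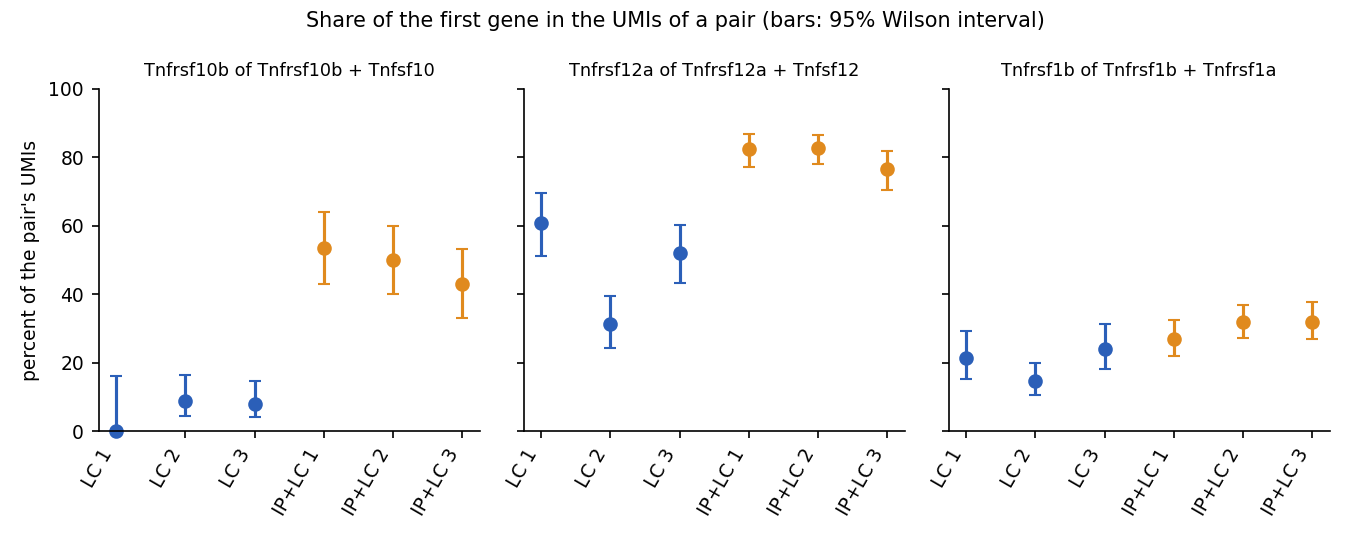
Share of the first gene, in percent, of the UMIs of a pair of genes in each tumor, with 95% Wilson intervals as bars. The IP + LC tumors lie above the LC tumors in all 3 pairs, at 42.9% to 53.7% against 0% to 8.79% for the TRAIL pair.

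Of the 2 receptors of TNF itself, Tnfrsf1b rose and Tnfrsf1a did not pass the test. Tnfrsf1a, the receptor with a death domain that most cells carry, had 103, 193 and 120 UMIs in LC and 199, 243 and 189 UMIs in IP + LC. At 143 ± 38.4 CPM and 141 ± 3.58 CPM (SD, n = 3), its groups overlapped and its log2 fold change was -0.01 (SE 0.23, edgeR's quasi-likelihood adjusted p = 0.975). Tnfrsf1b, which has no death domain and is found mainly on leukocytes and endothelium, lies on chromosome 4 from 145213463 to 145246870. It had 28, 33 and 38 UMIs in LC and 73, 114 and 89 UMIs in IP + LC. The 3 IP + LC tumors were higher than the 3 LC tumors in CPM, at 61.4 ± 7.37 against 35.4 ± 11.5 (SD, n = 3), with a log2 fold change of 0.85 (SE 0.26, edgeR's quasi-likelihood adjusted p = 0.0382). Without LC replicate 1, it was 1.1 (edgeR's adjusted p = 0.000453). The call was lost without LC replicate 2 (0.169), LC replicate 3 (0.110), IP + LC replicate 2 (0.144) or IP + LC replicate 3 (0.112). The share of Tnfrsf1b in the UMIs of both receptors was 21.4% (95% Wilson interval 15.2 to 29.2), 14.6% (10.6 to 19.8) and 24.1% (18.1 to 31.3) in LC and 26.8% (21.9 to 32.4), 31.9% (27.3 to 36.9) and 32.0% (26.8 to 37.7) in IP + LC.

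Markers of cells that carry Tnfrsf1b were read beside it. Of 8 macrophage markers, 3 rose, and the summed level of the list overlapped between the groups, at 649 to 2306 CPM in LC, highest in LC replicate 1, and 2248 to 2835 CPM in IP + LC. Of 4 leukocyte markers, 1 rose, and the summed levels overlapped at 792 to 1131 CPM in LC and 970 to 1403 CPM in IP + LC. Tnfrsf1b had 2.09 to 4.96 UMIs per 100 macrophage marker UMIs in LC and 2.35 to 2.51 in IP + LC. Per 100 leukocyte marker UMIs it had 3.26 to 4.26 in LC and 4.61 to 5.46 in IP + LC. All 6 endothelial markers fell, and per 100 of their UMIs Tnfrsf1b had 1.53 to 5.08 UMIs in LC and 14.6 to 20.0 in IP + LC. The part of these cells in the result was not tested.

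Of the 12 members of lymphocyte costimulation, 2 receptors, Tnfrsf9 and Tnfrsf14, had enough UMIs for the test, and both passed it with higher levels in IP + LC, where 16.8% of all tested genes did. Neither had enough UMIs in the 3 LC tumors alone, and both entered the test through their IP + LC tumors, so the filter partly sets this count. The ligands of this group were too low to test. Tnfrsf9 encodes 4-1BB, a receptor induced on activated T and NK cells, and lies on chromosome 4 from 150914562 to 150946102. It had 0, 7 and 6 UMIs in LC and 25, 51 and 31 UMIs in IP + LC. All IP + LC tumors were above all LC tumors, at 23.5 ± 5.88 CPM against 3.52 ± 3.06 CPM (SD, n = 3). Its fitted log2 fold change was 2.47 (SE 0.49, edgeR's quasi-likelihood adjusted p = 0.00750), 2.16 without LC replicate 1 (edgeR's adjusted p = 0.000340), and the call held in all 15 alternatives. Of 9 tested T cell markers, none passed in either direction by edgeR, at an unadjusted p below 0.05, with DESeq2 or with limma voom. Their summed level was 163 to 186 CPM in LC and 132 to 253 CPM in IP + LC. Per 100 T cell marker UMIs, Tnfrsf9 had 0 to 3.13 UMIs in LC and 8.88 to 13.7 UMIs in IP + LC. Of 3 tested NK cell markers, 1, Klrb1c, fell, and the summed level of the list was 37.9 to 67.8 CPM in LC and 55.8 to 69.5 CPM in IP + LC. Of 4 regulatory T cell markers, Ctla4 and Il2ra, which activated T cells also carry, were named after their values were seen. Ctla4 had 0, 3 and 1 UMIs in LC and 6, 19 and 12 in IP + LC. Il2ra had 3, 2 and 1 in LC and 1, 21 and 14 in IP + LC, and its groups overlapped in CPM. Ikzf2 was tested and not called (0.47, SE 0.44), and Foxp3 held at most 5 UMIs in any tumor. The part of these cells in the result was not tested.

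Tnfrsf14 encodes HVEM, which binds LIGHT as an activating and BTLA as an inhibitory partner, and lies on chromosome 4 from 154921933 to 154928563. It had 1, 13 and 15 UMIs in LC and 25, 56 and 30 UMIs in IP + LC. IP + LC tumors were higher in each case, at 24.2 ± 7.57 CPM against 8.21 ± 5.76 CPM (SD, n = 3), and LC replicate 1 was the lowest tumor. Tnfrsf14 differed by a log2 fold change of 1.39 (SE 0.45, edgeR's quasi-likelihood adjusted p = 0.0460), and 1.11 without LC replicate 1 (edgeR's adjusted p = 0.0140). The call was lost without LC replicate 2 (0.129) or IP + LC replicate 2 (0.188). Per 100 leukocyte marker UMIs, the values were 0.152 to 1.38 in LC and 1.55 to 2.37 in IP + LC. Reads of Tnfrsf14 may be shared, since 13.7% of its transcript is nearly identical to transcripts of other genes.

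Tnfrsf9, Tnfrsf14 and Tnfrsf1b lie on chromosome 4 with 6 untested members. The 250 bases upstream of the RefSeq start sites (GRCm38.p6) were searched on both strands, with a window for 23 of the 30 members. Motifs were the κB consensus, AP-1 (TGANTCA), the interferon-γ-activated site GAS (TTCNNNGAA), the core of the interferon-stimulated response element, ISRE (GAAANNGAA), and the hypoxia response core (ACGTG). Of 32851 promoter windows, 7.25%, 6.75%, 7.02%, 7.13% and 16.6% held them, in that order. A gene can have several windows, and counted by gene, with a match in any window, the shares of 27025 gene symbols were 8.23%, 7.82%, 8.13%, 8.18% and 18.5%. Of the 23 members, counted the same way, 3 had a match for κB, 4 for AP-1, 5 for GAS, 6 for the ISRE core and 6 for the hypoxia response core, and no test was made of these counts. The sequences of Tnfrsf1b (chr4:145246871-145247120, minus strand) and of a start site of Tnfrsf9 (chr4:150927749-150927917, plus strand) are shown 5′ to 3′ because they belong to receptors that rose and held a GAS match, with matches in capitals and with annotated exons left out.
Tnfrsf1b: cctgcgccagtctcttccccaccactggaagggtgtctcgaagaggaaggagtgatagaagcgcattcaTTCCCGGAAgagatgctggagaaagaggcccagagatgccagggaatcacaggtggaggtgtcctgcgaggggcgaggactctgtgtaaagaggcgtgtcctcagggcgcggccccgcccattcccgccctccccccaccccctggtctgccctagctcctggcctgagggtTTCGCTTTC
Tnfrsf9: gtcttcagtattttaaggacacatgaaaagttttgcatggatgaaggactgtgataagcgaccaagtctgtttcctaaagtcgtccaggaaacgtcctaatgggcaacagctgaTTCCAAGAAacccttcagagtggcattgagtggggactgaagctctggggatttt
The capitals are a GAS and an ISRE core in Tnfrsf1b and a GAS in Tnfrsf9. GAS matches were also found for Tnfrsf1a, which was not called (log2 fold change -0.01), and for Tnfrsf18 and Tnfrsf25, which were not tested. The remaining bases of the Tnfrsf9 window lie in an annotated exon and held a κB match (2 overlapping matches that span GGGGATTTCCC, from -43 to -33 of the start) and an AP-1 match (TGAGTCA, from -15 to -9). The other RefSeq start of Tnfrsf9 had no match to any of the 5 motifs. In Tnfrsf14, the ISRE core TTCATTTTC stood at -63 to -55, in bases that lie in an annotated exon. This core was also found for Tnfsf13b, which was not called, and for Tnfrsf17, Tnfrsf4 and Tnfsf8, which were not tested. A start of Tnfrsf19, which fell, held the hypoxia response core on both strands (CACGTG, from -133 to -128). That core was also found for Tnfrsf21, not called, and for Tnfrsf25, Tnfrsf4, Tnfrsf8 and Tnfsf14, not tested. These matches describe letters in a window and are not sites of binding.

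Of 4 members of the BAFF and APRIL axis, which keeps B cells alive, 2 receptors passed the test close to its limit with lower levels in IP + LC, 1 ligand did not pass and 1 receptor was not tested. Of all tested genes, 19.6% were called lower. Tnfrsf13c, the BAFF receptor, lies on chromosome 15 from 82221743 to 82224369 and had 8, 18 and 9 UMIs in LC and 4, 6 and 12 in IP + LC. The groups overlapped, since IP + LC replicate 3, at 8.71 CPM, was above LC replicate 3, at 7.63 CPM. The log2 fold change was -1.21 (SE 0.49, edgeR's quasi-likelihood adjusted p = 0.0957). Tnfrsf13b, which encodes TACI, a receptor for BAFF and APRIL, lies on chromosome 11 from 61126755 to 61149372 and had 9, 23 and 18 UMIs in LC and 11, 15 and 17 in IP + LC. In CPM the IP + LC tumors were lower without overlap, at 9.69 ± 2.33 against 16.3 ± 1.53 (SD, n = 3), with a log2 fold change of -0.76 (SE 0.30, edgeR's quasi-likelihood adjusted p = 0.0959).

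Both calls lay near the limit and were kept in 5 of 14 alternatives for Tnfrsf13c and in 3 of 14 for Tnfrsf13b. For Tnfrsf13c, the call was lost without LC replicate 2 (edgeR's adjusted p = 0.314), IP + LC replicate 1 (0.292) or IP + LC replicate 2 (0.313). For Tnfrsf13b, it was kept without LC replicate 1 (edgeR's adjusted p = 0.0699) and lost without any other tumor (0.113 to 0.293). Tnfsf13b, the ligand BAFF, had 10, 35 and 40 UMIs in LC and 15, 21 and 33 in IP + LC, with a log2 fold change of -0.80 (SE 0.37, edgeR's quasi-likelihood adjusted p = 0.140) that was not called. It was called lower without LC replicate 1 (-0.96, edgeR's adjusted p = 0.0198) and without IP + LC replicate 3 (-1.19, edgeR's adjusted p = 0.0646), and also with limma voom (-0.87, adjusted p = 0.0978), while thinning to equal depth left -0.25 (edgeR's adjusted p = 0.750). Tnfrsf17, which encodes BCMA of plasma cells, held at most 1 UMI in any tumor. Tnfsf13, the ligand APRIL, was not analysed here.

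**Figure D4:**
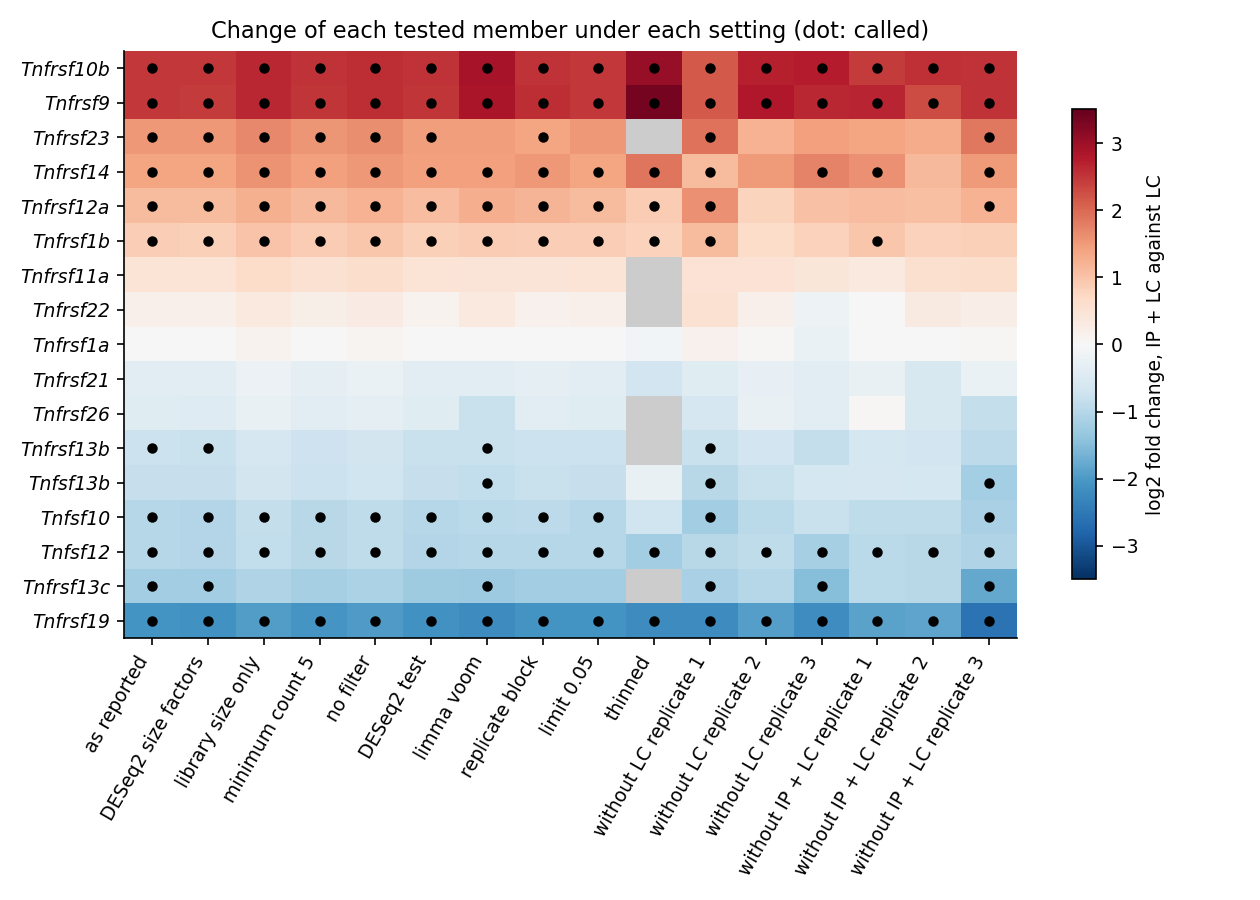
Log2 fold change of IP + LC against LC, as color from blue (lower) to red (higher), for the 17 tested members as reported and under the 15 alternatives, with a dot where the member was called and grey where it had too few UMIs for the test. Tnfrsf10b, Tnfrsf9, Tnfsf12 and Tnfrsf19 have a dot in every column, and Tnfrsf13b has a dot in 3 of its 14 alternatives.

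B cell markers fell with these receptors: 5 of 6 were lower, and their summed level was 215 to 308 CPM in LC and 44.2 to 158 CPM in IP + LC. Per 100 B cell marker UMIs, Tnfrsf13c had 2.64 to 6.40 UMIs in LC and 3.73 to 6.56 in IP + LC, which overlap. Tnfrsf13b had 5.28 to 7.20 in LC and 7.80 to 18.0 in IP + LC, above the LC range in every tumor. None of the 5 plasma cell markers passed by edgeR, at an unadjusted p below 0.05, with DESeq2 or with limma voom. The part of B cells in the result was not tested.

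Tnfrsf19 encodes TROY, a receptor of epithelial and neural progenitor cells, and lies on chromosome 14 from 60963875 to 61046490. It had 15, 49 and 36 UMIs in LC and 7, 9 and 17 UMIs in IP + LC. Every IP + LC tumor was below every LC tumor, at 7.56 ± 4.15 CPM against 31.6 ± 6.35 CPM (SD, n = 3). Tnfrsf19 differed by a log2 fold change of -2.10 (SE 0.37, edgeR's quasi-likelihood adjusted p = 0.00470), -2.20 without LC replicate 1, and the call held in all 15 alternatives. Its 7 and 9 UMIs in IP + LC replicates 1 and 2 lay under the minimum count of 10. The gene passed the filter on low counts through its LC tumors, where it was high. Of 5 epithelial markers, 4 fell, from summed levels of 644 to 763 CPM to levels of 428 to 492 CPM. Per 100 epithelial marker UMIs, Tnfrsf19 had 4.0 to 5.33 UMIs in LC and 1.18 to 2.51 in IP + LC, and per 100 type 1 alveolar marker UMIs it had 0.775 to 2.04 in LC and 0.591 to 1.20 in IP + LC. The groups were apart by the first list, with IP + LC lower, and overlapped by the second. Type 2 alveolar markers (5 of 6 lower) and airway markers (5 of 5 lower, from 45177 to 51800 CPM in LC and 3068 to 6809 CPM in IP + LC) fell as well. Per 100 type 2 alveolar marker UMIs, Tnfrsf19 had 0.0719 to 0.0964 UMIs in LC and 0.0460 to 0.135 in IP + LC, which overlap. Per 100 airway marker UMIs it had 0.0561 to 0.0741 in LC and 0.0903 to 0.181 in IP + LC, higher in every IP + LC tumor. The direction of this ratio therefore depended on the list, and the part of these cells in the result was not tested.

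Tnfrsf11a and Tnfrsf21 were tested and not called. Tnfrsf11a, the gene of RANK, the receptor of RANKL, had 6, 13 and 11 UMIs in LC and 24, 22 and 16 in IP + LC. Its levels did not overlap, at 9.32 to 10.3 CPM and 11.6 to 17.4 CPM, with a log2 fold change of 0.49 (SE 0.31, edgeR's quasi-likelihood adjusted p = 0.279). Tnfrsf21, the gene of death receptor DR6, ranged from 20.7 to 26.6 CPM in LC and from 16.0 to 23.9 CPM in IP + LC, with a log2 fold change of -0.36 (SE 0.27) and overlapping groups.

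The other 13 members had too few UMIs for the test, with a highest count of 23 UMIs in any tumor. Among the receptors, Tnfrsf4 (OX40), a costimulatory receptor of T cells, had 3, 2 and 1 UMIs in LC and 8, 23 and 17 in IP + LC. Its share of all UMIs was 6.18-fold higher in IP + LC (2.64 to 17.7, a 95% interval for counting error only), and with a minimum count of 5, which it passed only through its IP + LC tumors, the log2 fold change was 2.37 (edgeR's adjusted p = 0.0272). With the usual minimum it could be tested when IP + LC replicate 1 or any of the LC tumors was left out, with log2 fold changes from 1.89 to 3.05, and it was not called without LC replicate 2 (edgeR's adjusted p = 0.116). Tnfrsf18 (GITR), which marks regulatory and activated T cells, had 2, 5 and 6 UMIs in LC and 9, 17 and 12 in IP + LC, with a ratio of 2.26 (1.18 to 4.62). Under the same minimum it did not pass (log2 fold change 1.01, edgeR's adjusted p = 0.117). Part of its exons, 27.2%, overlaps a gene on the opposite strand, and the use of the strand in the counting is not given in the sources used here. Per 100 T cell marker UMIs, Tnfrsf4 had 0.521 to 3.16 UMIs in LC and 4.40 to 5.56 in IP + LC, and Tnfrsf18 had 2.11 to 3.13 and 3.44 to 4.95. Regulatory T cell markers, summed, were 12.1 to 35.6 CPM in LC and 28.3 to 51.9 CPM in IP + LC, and only 1 of 4, Ikzf2, could be tested. Ikzf2 held most of these UMIs in LC. The others, named after their values were seen, were Ctla4, with 0, 3 and 1 UMIs in LC and 6, 19 and 12 in IP + LC, Il2ra, with 3, 2 and 1 in LC and 1, 21 and 14 in IP + LC, and Foxp3, with at most 5 in any tumor. Their part in the levels of Tnfrsf4 and Tnfrsf18 was not tested.

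Costimulatory ligands were low in both groups. Tnfsf9, the ligand of 4-1BB, had 6, 3 and 12 UMIs in LC and 8, 12 and 8 in IP + LC (ratio of shares 1.03, 0.564 to 1.91). Tnfsf14 (LIGHT), a ligand of HVEM, had 2, 5 and 12 UMIs in LC and 1, 5 and 3 in IP + LC (ratio 0.366, 0.146 to 0.848), and most of its LC counts were in replicate 3. Tnfsf8, the CD30 ligand, had 2, 3 and 10 UMIs in LC and 9, 15 and 3 in IP + LC. Tnfsf15 had 0, 1 and 7 UMIs in LC and 3, 5 and 2 in IP + LC. Tnfsf11, the ligand RANKL, had 1, 2 and 0 UMIs in LC and 2, 5 and 3 in IP + LC. Its decoy receptor osteoprotegerin (Tnfrsf11b) had 4, 8 and 4 UMIs in LC and 7, 8 and 6 in IP + LC. Tnfrsf25, the receptor of Tnfsf15, had 1, 3 and 2 UMIs in LC and 3, 5 and 3 in IP + LC. Tnfrsf8, Tnfsf18 and Tnfsf4 held at most 3 UMIs in any tumor. Differences within these counting intervals were not detectable at this depth.

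Superfamily genes with other symbols and the genes that carry the signal inside the cell were read from the same test. Of 15 other superfamily genes, 5 were tested and only Fas passed, with a lower level, where 36.4% of all tested genes passed and 19.6% were lower. Fas, the death receptor of Fas ligand, had 20, 85 and 73 UMIs in LC and 37, 49 and 45 in IP + LC. It was lower in all 3 IP + LC tumors, at 29.4 ± 3.0 CPM against 54.3 ± 17.4 CPM (SD, n = 3), with a log2 fold change of -0.93 (SE 0.26, edgeR's quasi-likelihood adjusted p = 0.0296), and it was not called without LC replicate 2, IP + LC replicate 1 or IP + LC replicate 2. Cd40 (0.50, SE 0.22), Ltbr (0.26, SE 0.19), Cd27 (-0.24, SE 0.40) and the ligand Ltb (-0.66, SE 0.31) were not called. Tnf itself had 0, 3 and 0 UMIs in LC and 8, 13 and 12 in IP + LC, which was too few for the test. Its share of all UMIs was 8.49-fold higher (2.66 to 43.3). With a minimum count of 5 its log2 fold change was 2.84 (edgeR's adjusted p = 0.0278), a test that it entered only through its IP + LC tumors. Of the other untested genes, Relt had a ratio of shares of 2.32 (1.18 to 4.89). The ratio was 2.32 for Lta (0.578 to 13.3) and 1.93 for Fasl (0.708 to 6.07). For Eda it was 1.24 (0.356 to 4.799) and for Eda2r 0.772 (0.272 to 2.195). Relt did not pass with a minimum count of 5 (log2 fold change 1.09, edgeR's adjusted p = 0.245). Ngfr, Edar and Cd40lg held at most 3 UMIs in any tumor, and Cd70 held none.

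Inside the cell, 8 of 28 tested genes rose and none fell, where 16.8% of all tested genes rose and 19.6% fell, and the median log2 fold change was 0.37 against 0.02 over all tested genes. The count of falls was also 0 at an unadjusted p below 0.05, with DESeq2 and with limma voom. Of 8 macrophage markers 3 rose, of 4 leukocyte markers 1 rose, none of either list fell, and all 6 endothelial markers fell. The part of these cells in the result was not tested. Of 15 genes of NF-κB output and feedback, 6 rose, beside the 16.8% of all tested genes. Nfkbie, an inhibitor of NF-κB, had 34.4, 4.70 and 9.32 CPM in LC and 60.2, 79.4 and 58.8 CPM in IP + LC, and LC replicate 1 was the highest of its group. Its log2 fold change was 2.31 (edgeR's quasi-likelihood adjusted p = 0.0118). With 6 UMIs in LC replicate 2, Nfkbie did not have enough UMIs in the LC tumors alone and entered the test through its IP + LC tumors. Nfkb2, a subunit of the noncanonical pathway, followed at 1.41 (0.0143), and Tnfaip3 (A20), which ends NF-κB signaling, at 1.19 (0.00690). Tnip1 (0.95), Relb (0.81) and Nfkb1 (0.69) also rose. The other 9 were not called, namely Map3k14 (0.54), Cyld (0.45), Rela (0.37), Rel (0.36), Ikbkb (0.36), Tank (0.16), Nfkbia (0.15), Chuk (0.01) and Ikbkg (-0.10). Nfkbia had the most UMIs of the list. Of 6 TRAF adaptors, Traf2 rose, with 10, 33 and 24 UMIs in LC and 64, 79 and 50 in IP + LC and a log2 fold change of 0.98 (edgeR's quasi-likelihood adjusted p = 0.0162). Traf4 (0.81, SE 0.36) and Traf3 (0.61, SE 0.34) were not called. Of 7 genes of the death receptor complex, Ripk1, the kinase that links death receptors to NF-κB and necroptosis, rose by 1.00 on the log2 scale (edgeR's quasi-likelihood adjusted p = 0.0198), while Tradd (0.44, SE 0.29) and Cflar (0.34, SE 0.29) were not called. Without LC replicate 1, 16 genes of the 5 lists together rose instead of 8 and 2 fell instead of 1, while over all genes 3324 of 11748 tested rose instead of 1885 of 11240.

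**Figure D5:**
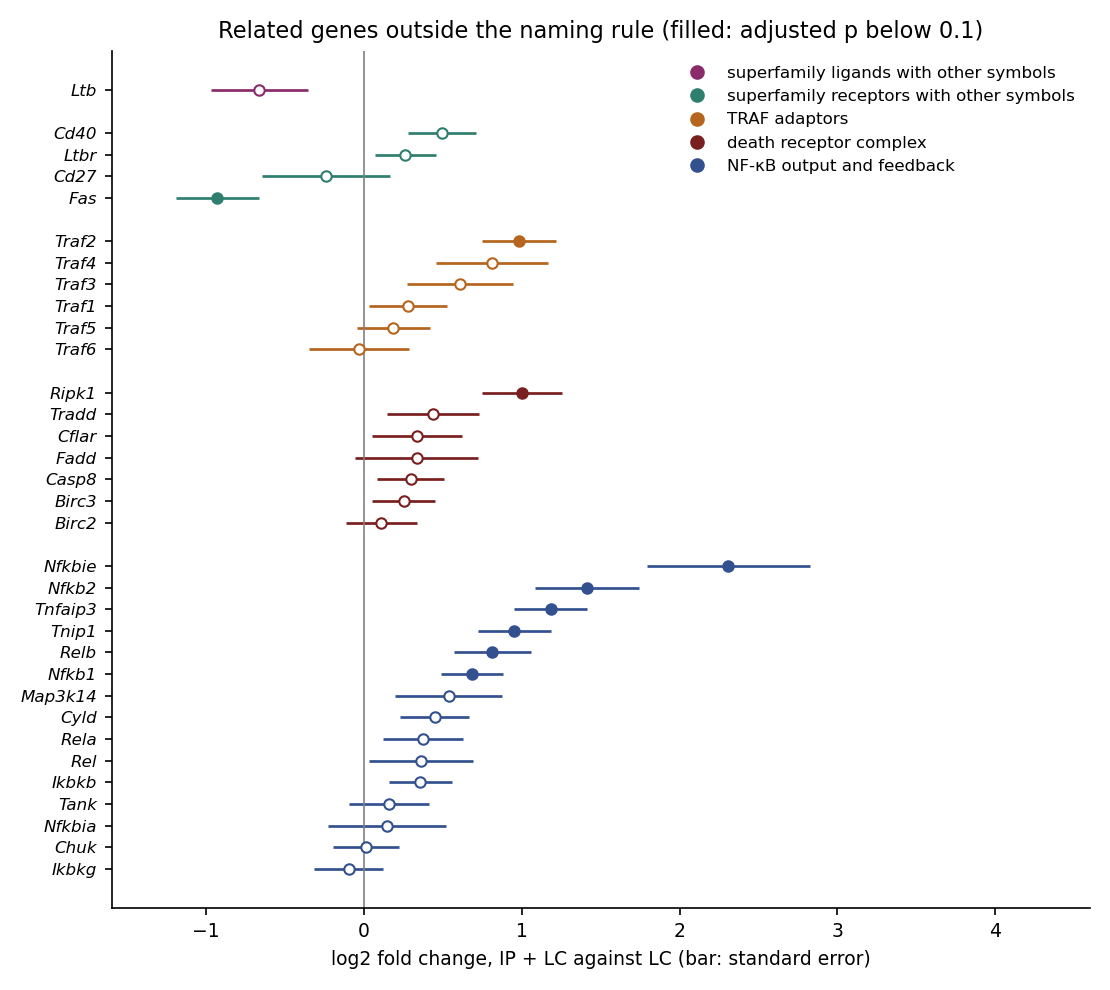
Log2 fold change of IP + LC against LC for the 33 tested genes of the 5 lists outside the naming rule, with the standard error as a bar, 1 color per list and filled points for an adjusted p below 0.1. Of the filled points, 8 lie to the right of 0 and Fas alone, at -0.93, to the left.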

How the data were processed

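RNA from 3 LC and 3 IP + LC tumors was sequenced by bulk RNA barcoding. The deposited values are UMI counts per gene, not normalized, in 1 table per tumor. The authors' methods and the submitters' processing notes name UMI-tools 1.1.1, Trim Galore 0.6.7, HISAT2 2.2.1 (GRCm38) and featureCounts 2.0.1. The annotation release is not given in the sources used here. Genes were kept by filterByExpr (minimum count 10, minimum total 15), scaled by TMM and compared over all 11240 kept genes with edgeR 4.0.16 (quasi-likelihood test, Benjamini-Hochberg limit 0.1, R 4.3.3). DESeq2 1.42.0, limma voom 3.58.1, other scalings and filters, thinning to 592733 UMIs (seed 1), a replicate block and each tumor left out were alternatives. On simulated counts of 10908 genes, 192 of 198 changed genes were recovered with 15 false calls. Every member is accounted for: called members are given with UMIs or CPM in each tumor, other tested members by range, and untested members of at least 10 UMIs in all by their counts. Of the lists, called genes and the 3 largest changes are named, with every tested gene of the NF-κB list and every untested superfamily gene with another symbol. The superfamily was picked as a subject, and the lists were chosen, with earlier results of these data known, although the rule for members uses no measured value. Shares, ratios per marker UMI and motifs were chosen after seeing the data. Coordinates and exon overlap came from GENCODE M21, near-identical copies from blastn 2.17.0+ (at least 81 bases and 95% identity), and promoters from RefSeq GRCm38.p6.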

Additional observations from a re-analysis of the deposited data

How the results depend on the processing

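Directions of the tested members were mostly kept. Of 249 values of member fold changes under the alternatives, 194 kept direction and side of the limit, 41 lost the call, 3 gained one and 11 changed sign. Sign changes concerned members that were not called: Tnfrsf1a was 0.13 by library size only, 0.023 with a minimum count of 5, 0.095 without a filter, 0.023 with limma voom, 0.013 with the replicate block and from -0.23 to 0.16 with a tumor left out, Tnfrsf22 ran from -0.19 to 0.54 and Tnfrsf26 from -0.84 to 0.052. The 3 receptors called lower became 1 by library size only, with a minimum count of 5, without a filter, with DESeq2, with the replicate block, at a limit of 0.05 and after thinning, and 1 to 3 with a tumor left out. The 2 ligands called lower became 1 after thinning, and 1 to 3 with a tumor left out. Receptors called higher ran from 2 to 7 with a tumor left out. List genes called higher ran from 6 to 16, and those called lower from 0 to 2, with 0 after thinning. The cause was not tested, except that thinning left 8832 genes and 11 members to test. Over all genes, 4088 calls became 2352 after thinning, and, with a tumor left out, 6691 (LC replicate 1), 2585 (LC replicate 2), 2660 (IP + LC replicate 1) and 2265 (IP + LC replicate 2). Library size only moved the median log2 fold change of all genes from 0.02 to 0.18 and the calls to 2520 higher of 4320, against 1885 of 4088, and 6 receptors were still higher and 2 ligands lower. Deviations of same-numbered tumors from their group means correlated at 0.026, -0.12 and 0.11, and 2 of 6 tumors correlated best with their own number. Whether same-numbered tumors share a batch is not given in the sources used here, and these correlations do not decide it. With the replicate block, 3410 genes were called, with 2 ligands lower, 6 receptors higher and 1 receptor lower.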
